A study of Mus musculus with 15 samples.

Results

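Fibrillar procollagens leave the fibroblast with a propeptide at each end, and 2 families of extracellular metalloproteases remove them. The members described here were the 8 mouse genes that encode these proteases and their enhancers: *Bmp1*, *Tll1* and *Tll2* (tolloid proteases), *Pcolce* and *Pcolce2* (procollagen C-proteinase enhancers), and *Adamts2*, *Adamts3* and *Adamts14* (procollagen N-proteinases). They were chosen by name, with earlier results of these data known. Every non-control probe assigned to a RefSeq transcript of 1 of them was taken, which gave 14 probes on 32 spots. All 8 genes were on the array, among 23462 gene symbols. A probe was tested when it was well above background on all arrays of at least 1 of the groups. This left 12 probes of 6 members; *Tll2* and *Adamts3* were not well above background on any of the 15 arrays and were not tested.

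The cells were mouse embryonic fibroblasts (MEFs) of the Balb/c 3T3 clone A31, an immortal line that grew from 1 clone, so that all groups share 1 genetic background and say nothing of variation between animals. RNA was measured on 15 one-color Agilent arrays in 5 groups of 3: untreated control cells, and cells treated by TNFα at 10 ng/ml, TGFß1 at 5 ng/ml, IL-1β at 1 ng/ml, or IL-6 at 20 ng/ml together with its soluble receptor IL-6Rα at 25 ng/ml. Stimulation with TNFα and TGFß1 lasted 24 h; the time for IL-1β and IL-6 was not given in the sources used here. The study describes the arrays as 3 biological replicas from independent experiments. A level below is the log2 intensity of a probe minus the 75th percentile of its array, so that 0 is the 75th percentile and 1 unit is a doubling. Arrays are named by group and by the number in their label. A member was called changed when limma's two-sided test gave a q-value (Benjamini-Hochberg, over all 29334 tested probes) below 0.05 and an absolute fold-change of at least 1.5.

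As background, cleavage of the C-propeptide by BMP1 and the tolloid-like proteases lowers the solubility of procollagen and lets fibrils assemble. The same enzymes activate the cross-linking enzyme lysyl oxidase and trim anchoring collagen and small proteoglycans, and they free BMP ligands by cutting chordin. PCOLCE and PCOLCE2 bind the C-propeptide and speed its removal without being proteases themselves. ADAMTS2, ADAMTS3 and ADAMTS14 remove the N-propeptide, and loss of ADAMTS2 activity in humans and cattle gives fragile skin.

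In MEFs treated by TGFß1, *Tll1*, *Pcolce2* and *Bmp1*, which act on the C-propeptide, were called higher, and no N-proteinase was called. The call of *Bmp1* was lost under 10 of 22 alternative settings. *Pcolce*, which also acts on the C-propeptide, was below control with TGFß1. Its brightest probe was not called (-0.51 in log2 units), and its second probe was called lower (-0.61). In MEFs treated by TNFα, the N-proteinases changed in opposite directions, with *Adamts14* higher and *Adamts2* lower, and *Pcolce* was lower. For *Bmp1* with TNFα, 1 of 3 probes was called lower, and the brightest was not. No member was called in MEFs treated by IL-1β or by IL-6 with its receptor. Against control, 3 of 6 tested members were called for TGFß1 (3 higher and 0 lower), beside 7.51% of all tested probes called higher and 10.4% called lower. Of 13523 tested genes, 1202 were called higher and 1646 lower with TGFß1. Both *Tll1* probes passed the filter only through the TGFß1 arrays, where they were highest. Counts with TGFß1 that include *Tll1* are therefore not independent of that filter. For TNFα, 3 of 6 were called (1 higher and 2 lower), beside 4.09% of probes higher and 5.96% lower. Of the tested genes, 617 were called higher and 1081 lower with TNFα. *Tll1* and *Pcolce2* were not called with TNFα in this fit, but both were called higher with slide and run of array numbers as blocks. For IL-1β the background was 0.228% higher and 0.00341% lower, and for IL-6 it was 0.058% higher and 0% lower, so that 0 of 6 members lay near the background in both.

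**Figure D1:**
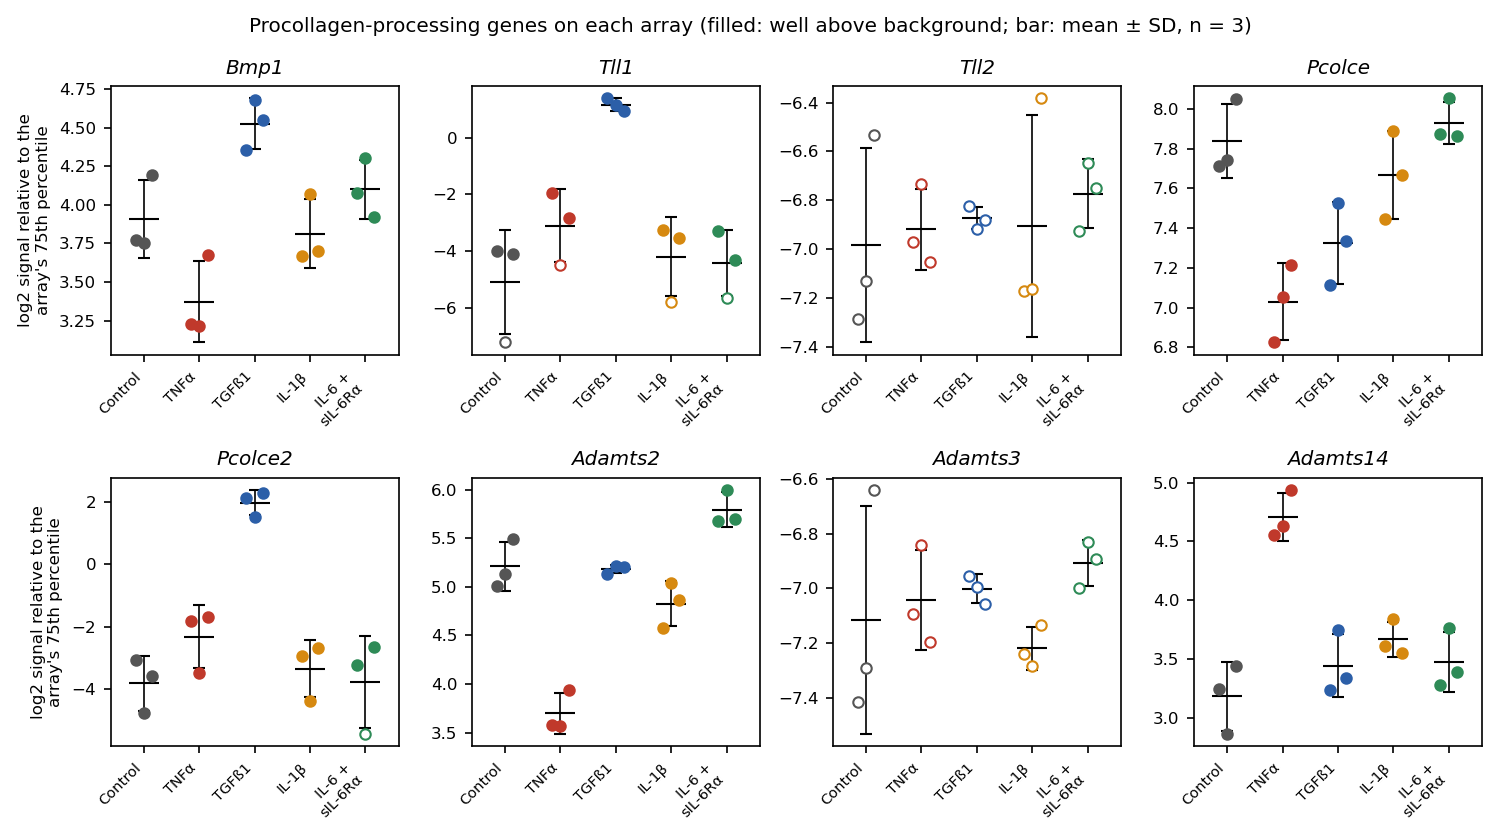
Level of each member on each array (y axis, log2 signal relative to the array's 75th percentile; axes differ between panels) in the 5 groups, through the brightest probe of the gene. Points are arrays, open where the probe was not well above background, and bars give mean ± SD (n = 3). *Tll1* and *Pcolce2* stand apart in the TGFß1 group, *Adamts2* and *Adamts14* in the TNFα group, and *Tll2* and *Adamts3* have open points only.

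Cells and stimuli were checked first. All 10 fibroblast markers, among them *Col1a1*, *Vim* and *Pdgfra*, were well above background on all 15 arrays. The leukocyte genes *Ptprc* and *Adgre1*, the endothelial genes *Cdh5*, *Kdr* and *Tek*, and the epithelial genes *Cdh1* and *Krt5* were on 0 of 15. Other genes of those lists were detected: *Cd68*, *Csf1r* and *Itgam* (leukocyte) and *Pecam1* (endothelial) on all 15, and the epithelial *Krt13*, *Krt15*, *Krt18*, *Krt8*, *Krt14* and *Epcam* on 12, 11, 10, 4, 3 and 1. The summed leukocyte signal, in units of the 75th percentile, was 10.2 to 21.9 in control and within 10.8 to 24.1 in the treated groups, and the endothelial sum was 0.107 to 0.141 and 0.101 to 0.149. The leukocyte sum split by the slide an array came from in every group, at 10.2 to 11.9 on slide 1 and 20.6 to 24.1 on slide 2. Known targets moved with their cytokine: *Smad7* and *Ccn2* were higher with TGFß1, *Tnfaip3* and *Nfkbia* with TNFα and IL-1β, and *Socs3* with IL-6. The summed signal of the 8 epithelial markers, in the same units, ran from 2.51 to 3.35 in control, 0.116 to 0.134 with TNFα, 0.471 to 0.905 with TGFß1, 0.812 to 1.28 with IL-1β and 2.23 to 2.58 with IL-6. *Krt15*, a keratin of basal epithelium, accounted for most of the control sum (level 1.20 ± 0.18, SD, n = 3) and was at least 61.7-fold lower with TNFα (q = 1.25e-07). The part of this difference in the results below was not tested. In a bulk sample, fewer cells with a transcript and less of it per cell cannot be told apart.

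*Tll1* encodes tolloid-like 1, which cleaves the C-propeptide as BMP1 does. Its brightest probe, for a predicted RefSeq transcript, read 1.40, 1.18 and 0.94 on TGFß1 arrays 2, 7 and 12. On control arrays 1, 6 and 11 it read -3.98, -7.23 and -4.11, and array 6 was not well above background. The 3 TGFß1 arrays lay above all 12 others, the highest of which was TNFα array 4 at -1.95. The log2 fold-change against control was 6.28 ± 0.96 (SE), a 77.7-fold difference with a 95% confidence interval from 4.21 to 8.35 on the log2 scale (q = 0.000611). Its size rested on the low control values. The log2 fold-change was 5.22 without control array 6 (q = 0.00215) and also without arrays 6 to 10 (q = 0.000489), and 3.67 with normexp background correction (q = 7.53e-07).

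The second *Tll1* probe, for the curated transcript, did not give the same size. It read -2.39, -3.04 and -2.95 with TGFß1 and -4.89, -3.76 and -5.04 in control. The groups did not overlap, but the log2 fold-change was 1.77 ± 0.63 (SE; q = 0.0609) and was not called. Control array 11 was not well above background for this probe, and only the TGFß1 group had it well above background on every array. Both probes therefore read higher with TGFß1, at fold-changes of 77.7 and 3.41. The second value rests on control signals near background and was not called. The array files name the transcripts but give no probe sequence, so which exons each probe reads was not analysed here.

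*Pcolce2* encodes the second enhancer and was among the genes the study itself selected on these arrays, so that its change here is no independent evidence. Its probe read 2.14, 1.52 and 2.29 with TGFß1 and -3.06, -4.78 and -3.59 in control. No array of the other groups came above -1.69, the value of TNFα array 14. The log2 fold-change was 5.80 ± 0.74 (SE), a 55.6-fold difference (95% confidence interval 4.20 to 7.39 on the log2 scale; q = 0.000183). Its control arrays were all well above background, though at low signal, and normexp background correction gave 4.12 (q = 1.09e-06).

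*Bmp1*, the founding member of the family, had the smallest of the 3 changes with TGFß1. It read 4.35, 4.68 and 4.55 with TGFß1 and 3.77, 3.76 and 4.20 in control, and the groups did not overlap. The log2 fold-change was 0.62 ± 0.18 (SE), 1.54-fold higher (q = 0.0255). The other 2 *Bmp1* probes gave 0.70 and 0.60 (q = 0.0266 and 0.0124), both called. The call of the brightest probe lay close to both thresholds and was lost under 10 of 22 alternative settings, with the log2 fold-change between 0.47 and 0.76. Among them were leaving out control array 1 (0.55, q = 0.0763) or 6 (0.54, q = 0.0829), or TGFß1 array 7 (0.54, q = 0.0818) or 12 (0.61, q = 0.0707).

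With TNFα *Bmp1* read 3.23, 3.21 and 3.68, below every control array. The log2 fold-change was -0.54 ± 0.18 (SE; 1.45-fold, q = 0.0741) and was not called, nor was that of the third probe, at -0.30 (q = 0.236). The second probe, at -0.70 (1.62-fold, q = 0.0445), was called lower. The brightest probe was called without TNFα array 14 (-0.69, q = 0.0355) and with no scaling between arrays (-0.60, q = 0.032).

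*Pcolce*, the gene of the first enhancer, moved the other way from *Pcolce2*. It read 6.83, 7.05 and 7.21 with TNFα and 7.71, 7.75 and 8.05 in control, with no overlap. The log2 fold-change with TNFα was -0.81 ± 0.16 (SE), 1.75-fold lower (q = 0.00543), and the second probe gave -0.88 (q = 0.00747). With TGFß1 it read 7.11, 7.53 and 7.33, also below every control array. That difference passed the q-value but not the fold-change threshold, at -0.51 ± 0.16 (SE; 1.43-fold, q = 0.0331), while the second probe at -0.61 (1.52-fold, q = 0.029) passed both. Each of the 2 *Pcolce* probes was the mean of up to 10 spots. *Tll2*, the third tolloid gene, gave between -7.29 and -6.38 on all 15 arrays, which is background.

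**Figure D2:**
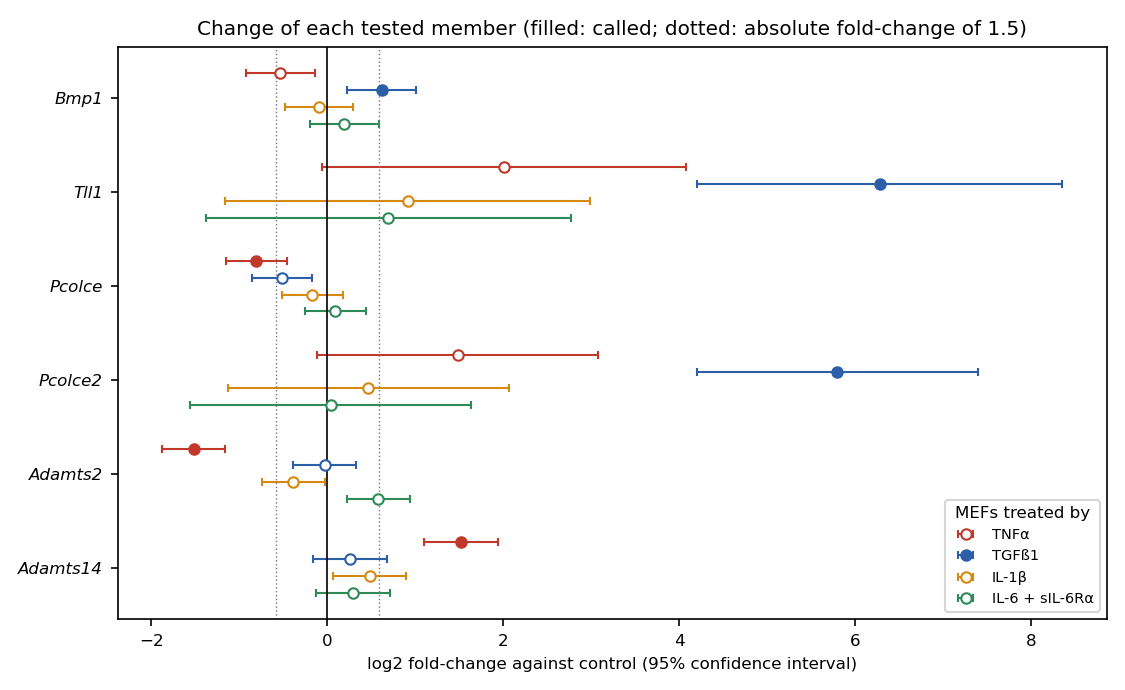
Log2 fold-change against control (x axis) with its 95% confidence interval for the 6 tested members under each cytokine. Filled points were called, open points were not, and dotted lines mark an absolute fold-change of 1.5. The intervals of *Tll1* and *Pcolce2* under TGFß1 lie above 4, and those of *Adamts2* and *Adamts14* under TNFα lie on opposite sides of 0.

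The N-proteinases split under TNFα. *Adamts2*, the main procollagen I N-proteinase, read 3.58, 3.57 and 3.94 with TNFα and 5.01, 5.13 and 5.50 in control. The log2 fold-change was -1.52 ± 0.16 (SE), 2.86-fold lower (95% confidence interval -1.87 to -1.16; q = 8.68e-05). The second *Adamts2* probe gave -1.71 (q = 0.000687), so that both probes were lower by similar amounts. With TGFß1 the gene read 5.14, 5.21 and 5.21, and its log2 fold-change of -0.03 had an interval from -0.39 to 0.33.

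*Adamts14*, its close relative, read 4.56, 4.63 and 4.94 with TNFα and 3.25, 2.87 and 3.44 in control. The log2 fold-change was 1.52 ± 0.19 (SE), 2.87-fold higher (95% confidence interval 1.11 to 1.94; q = 0.000256), and the second probe gave 1.56 (q = 0.000599). All 3 TNFα arrays lay above the 12 others, the next being IL-1β array 10 at 3.84. With TGFß1 it read 3.24, 3.75 and 3.35, overlapping control, at a log2 fold-change of 0.26 with an interval from -0.16 to 0.68. *Adamts3*, known mainly for activating the lymphatic growth factor VEGF-C, stayed between -7.42 and -6.64 on all 15 arrays, not well above background.

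**Figure D3:**
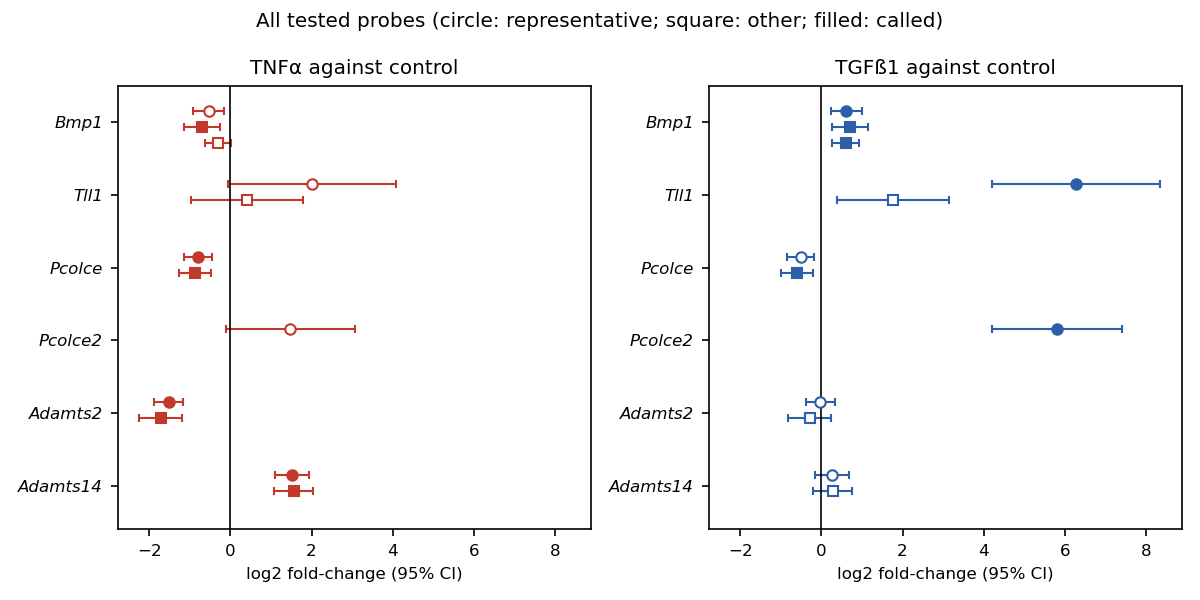
Log2 fold-change (x axis) with 95% confidence interval of all 12 tested probes with TNFα (left) and TGFß1 (right). Circles are the brightest probe of a gene, squares its other probes, and filled symbols were called. The probes of *Adamts2*, *Adamts14*, *Bmp1* and *Pcolce* lie close together, while the 2 *Tll1* probes differ under TGFß1 (6.28 and 1.77).

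With IL-1β and IL-6 the members stayed near control. With IL-1β the log2 fold-changes ran from -0.39 (*Adamts2*) to 0.91 (*Tll1*), and with IL-6 from 0.04 (*Pcolce2*) to 0.69 (*Tll1*). Groups did not overlap for *Adamts2* with IL-6 and for *Adamts14* with IL-1β. How often groups of 3 arrays fail to overlap over all probes was not counted, so this sets neither gene apart. *Adamts2* read 5.68, 6.00 and 5.70 with IL-6, all above the highest control array, at 0.58 ± 0.16 (SE; 1.497-fold, unadjusted p = 0.00387, q = 0.666). *Adamts14* read 3.61, 3.84 and 3.56 with IL-1β, also above control, at 0.48 ± 0.19 (SE; 1.40-fold, unadjusted p = 0.0265, q = 1). For *Tll1* and *Pcolce2* the intervals were wide, reaching 2.99 and 2.07 with IL-1β. This fit has no term for the run of array numbers and could not tell changes of that size from none. Within the runs described below, IL-1β minus control was 0.74, 1.43 and 0.57 for *Tll1* and 0.12, 0.38 and 0.91 for *Pcolce2*. At 1.43, the probe was well above background on neither array. The second *Tll1* probe was at -0.47 with IL-1β. With IL-6 the within-run signs were mixed for both genes. With slide and run as blocks no member was called with either cytokine.

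*Tll1* and *Pcolce2* differed between runs of array numbers as well as between groups. On arrays 6 to 10, which hold 1 array of each group, the *Tll1* probe averaged -5.79 over the 4 groups other than TGFß1, against -3.12 on arrays 1 to 5 and -3.70 on arrays 11 to 15. *Pcolce2* averaged -4.53, against -2.76 and -2.65. In each of the 5 groups the *Pcolce2* value was lowest on the array numbered 6 to 10, and so was that of *Tll1* in all groups but TGFß1. The second *Tll1* probe did not share the step, and control array 6 gave its highest control value. Arrays 6 to 10 were not the lowest run for the other 4 tested members, with *Bmp1* at 3.69, 3.84 and 3.87 in the 3 runs. The labels do not say what a run is.

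Through the brightest probe of each gene, TNFα exceeded control within every run. For *Tll1* the differences were 2.03, 2.72 and 1.28, and for *Pcolce2* 1.25, 1.28 and 1.91, in log2 units. The *Tll1* difference of 2.72 is between TNFα array 9 and control array 6, and the probe was well above background on neither. Without a term for the run neither was called (*Tll1* 2.01 ± 0.96, SE, q = 0.208; *Pcolce2* 1.48 ± 0.74, SE, q = 0.229). With slide and run as blocks both were called, *Tll1* at 2.21 (q = 0.0049) and *Pcolce2* at 1.48 (q = 0.00732). They were also called without arrays 6 to 10, at 1.65 (q = 0.0481) and 1.58 (q = 0.0105). That alternative was chosen after seeing the data, so it is no separate support. The second *Tll1* probe gave 0.41 for TNFα (q = 0.724). On arrays 6 to 10 it read -3.81 with TNFα and -3.76 in control, while TNFα was above control in the other runs.

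**Figure D4:**
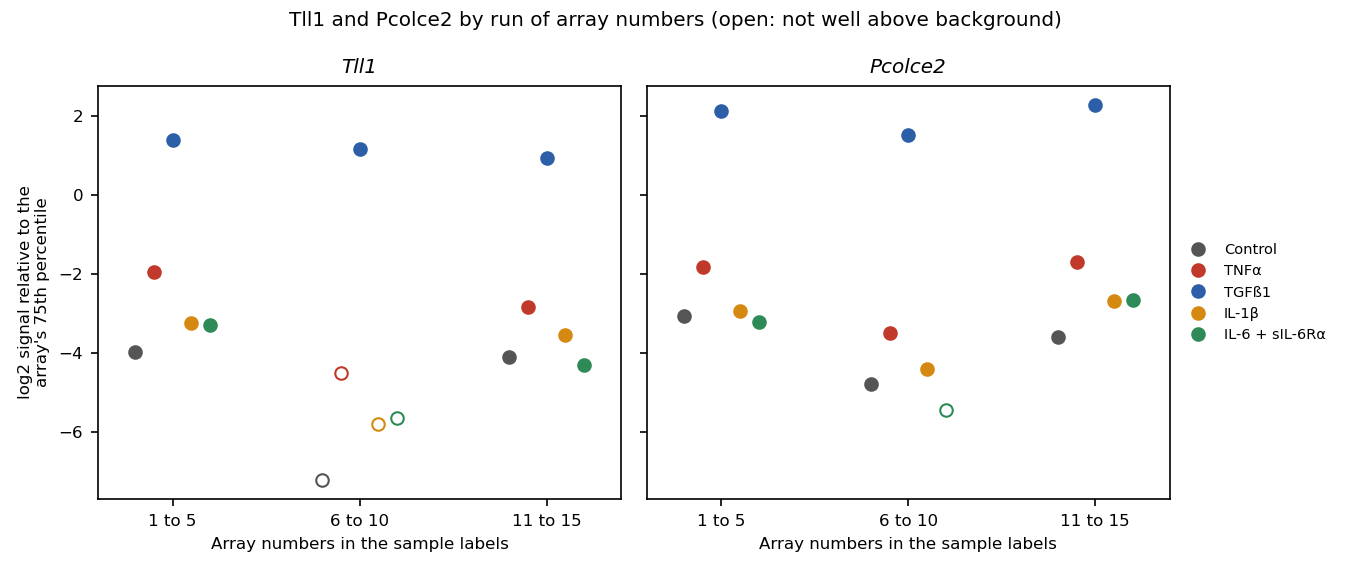
Level of *Tll1* and *Pcolce2*, through the brightest probe of each gene (y axis, log2 signal relative to the array's 75th percentile), by run of array numbers in the labels (x axis, 1 array of each group per run). Open points were not well above background. Outside the TGFß1 group, the arrays numbered 6 to 10 lie lowest for both genes, and TNFα lies above control in every run.

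The arrays came from 2 slides, each with arrays of every group. Slide 1 holds 1 TNFα and 1 TGFß1 array, and slide 2 holds 1 control array, number 6, so TNFα or TGFß1 against control within a slide has an arm of 1 array, which is assumed to vary like the other groups. With TNFα, *Adamts14* was at 1.59 (q = 0.0632) on slide 1 and 1.73 (q = 0.0186) on slide 2, and *Adamts2* at -1.31 (q = 0.144) and -1.55 (q = 0.0203). *Pcolce* with TNFα was at -0.67 (q = 0.331) and -0.81 (q = 0.0706), and *Bmp1* with TGFß1 at 0.69 on both (q = 0.228 and 0.0362). For *Tll1* with TGFß1 the values were 5.22 (q = 0.102) and 8.40 (q = 0.0187), the latter set against control array 6, on which the probe was not well above background. For *Pcolce2* with TGFß1 they were 4.84 (q = 0.0725) and 7.00 (q = 0.0157). With slide as a block over all arrays, *Tll1* was at 6.44 (q = 0.000681) and *Adamts14* with TNFα at 1.63 (q = 1.65e-05).

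Cytokines were then compared directly, in 6 pairs, to test whether a member differed between them. The stimulation time for IL-1β and IL-6 was not given. In pairs with either, the cytokine and a possible difference in time cannot be told apart. Over the 6 pairs and 6 tested members, 20 differences were called. For TGFß1 against TNFα 5 of 6 members were called (11.8% of all probes), with *Tll1* 4.27, *Pcolce2* 4.31, *Bmp1* 1.15 and *Adamts2* 1.49 log2 units higher with TGFß1 and *Adamts14* 1.26 higher with TNFα. *Pcolce* was the exception, at 0.29 with an interval from -0.05 to 0.64.

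Against IL-1β, 3 of 6 members were higher with TGFß1 (16.9% of probes), namely *Tll1*, *Pcolce2* and *Bmp1*, and against IL-6, 4 of 6 were called (16.3%), *Tll1* and *Pcolce2* higher and *Pcolce* and *Adamts2* lower. TNFα against IL-1β gave 3 of 6 (4.69%) and TNFα against IL-6 gave 4 of 6 (8.59%). *Adamts14* was higher with TNFα in both, by 1.04 and 1.23, and *Adamts2* lower, by -1.13 and -2.10, as was *Pcolce*, by -0.64 and -0.90; *Bmp1* was lower than with IL-6 alone, by -0.73. IL-1β against IL-6 gave 1 of 6 (0.399%), *Adamts2*, which was lower with IL-1β by -0.97 ± 0.16 (SE; q = 0.026). Several direct calls lay close to the thresholds. Of 22 alternative settings, *Pcolce* with TNFα against IL-1β lost its call under 12, *Bmp1* with TNFα against IL-6 and *Adamts2* with TGFß1 against IL-6 under 10 each, *Pcolce* with TGFß1 against IL-6 under 8 and *Bmp1* with TGFß1 against IL-1β under 6, all in the same direction. The call of *Adamts2* with IL-1β against IL-6 was lost under 11 of 22 alternative settings, with the log2 fold-change between -1.07 and -0.84, and in 5 of the 6 cases that left out 1 array.

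With slide and run as blocks, *Tll1* and *Pcolce2* were also higher with TNFα than with IL-6 (1.52, q = 0.0303, and 1.44, q = 0.0092), and *Pcolce2* than with IL-1β (1.01, q = 0.0489). In the same fit *Pcolce* with TNFα against IL-1β (-0.57, q = 0.000428) and *Pcolce* and *Adamts2* with TGFß1 against IL-6 (-0.54, q = 0.0002, and -0.56, q = 0.00316) fell short of the fold-change threshold.

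The order of *Adamts2* levels ran from TNFα (3.70 ± 0.21, SD, n = 3) through IL-1β (4.83 ± 0.23), TGFß1 (5.19 ± 0.04) and control (5.21 ± 0.25) to IL-6 (5.80 ± 0.18). Of the neighbours in that order, TNFα and IL-1β differed by the test. IL-1β and TGFß1, and control and IL-6, had arrays that did not overlap but no call, and TGFß1 and control overlapped. For *Adamts14*, only TNFα (4.71 ± 0.20) differed from its neighbour, IL-1β (3.67 ± 0.15), with IL-6 (3.48 ± 0.25), TGFß1 (3.45 ± 0.27) and control (3.19 ± 0.29) close below.

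Among the C-propeptide genes, *Tll1* ran from control (-5.11 ± 1.84) through IL-6 (-4.41 ± 1.17), IL-1β (-4.19 ± 1.40) and TNFα (-3.10 ± 1.30) to TGFß1 (1.17 ± 0.23). *Pcolce2* had the same order, at -3.81 ± 0.88, -3.77 ± 1.48, -3.34 ± 0.92, -2.33 ± 1.01 and 1.98 ± 0.41. In both, TGFß1 differed from TNFα by the test and the 4 lower groups overlapped their neighbours. *Bmp1* ran from TNFα (3.37 ± 0.26) through IL-1β (3.81 ± 0.22), control (3.91 ± 0.25) and IL-6 (4.10 ± 0.19) to TGFß1 (4.53 ± 0.16). *Pcolce* ran from TNFα (7.03 ± 0.20) through TGFß1 (7.33 ± 0.21), IL-1β (7.67 ± 0.22) and control (7.84 ± 0.19) to IL-6 (7.93 ± 0.11). For these 2 genes no neighbours in the order were called different, and differences were called between groups farther apart.

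The substrates and partners were taken from lists of known pathway genes. Over all 13523 tested genes, 617 were called higher and 1081 lower with TNFα, and 1202 higher and 1646 lower with TGFß1. Of 11 fibrillar procollagen chains 9 were tested. With TNFα 5 of them were lower and 1 was higher, with a median log2 fold-change of -0.79 beside 0.006 over all 13523 tested genes. *Col3a1* was 4.50-fold lower (q = 0.00651), *Col5a1* 2.32-fold (q = 0.00914), *Col5a2* 1.85-fold (q = 0.0247) and *Col1a1*, a main chain of dermal collagen, 1.73-fold (q = 0.024). *Col5a3*, a minor chain that joins type V fibrils, was 2.83-fold higher (q = 0.00515). With TGFß1 3 were called higher and 0 lower, at a median of 0.28 beside 0.06. Those higher were *Col5a3* 9.91-fold (q = 1.3e-05), *Col5a1* 1.75-fold (q = 0.0406) and *Col1a1* 1.52-fold (q = 0.0481). The call of *Col1a1* lay close to both thresholds. *Col3a1* was 2.26-fold below control with TGFß1 but was not called (q = 0.0693). *Col1a1*, *Col5a1* and *Col5a3* are also among the genes the study selected.

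Of 16 other substrates of the tolloid proteases 13 were tested, and the changes went both ways. With TGFß1 4 were higher and 3 lower, beside 1202 higher and 1646 lower of all 13523 tested genes. *Col7a1*, the anchoring fibril collagen, was 3.86-fold higher (q = 7.09e-06), and *Gdf11*, a TGFß family ligand freed by tolloid cleavage, 2.57-fold (q = 0.00083). *Dmp1*, a mineralised-tissue phosphoprotein not well above background in control, was at least 8.25-fold higher (q = 1.18e-05). Its probe passed the filter only through the TGFß1 arrays. *Dcn*, the small proteoglycan decorin, was 3.49-fold lower with TGFß1 (q = 0.00782) and 3.76-fold higher with TNFα (q = 0.00935). *Col7a1* and *Dcn* are also among the genes the study selected on these arrays, so that their changes are no independent evidence. *Hspg2*, the basement membrane proteoglycan perlecan, was 1.56-fold lower with TGFß1 (q = 0.0216). The cross-linking enzyme gene *Loxl1* was lower with both, 1.52-fold with TGFß1 (q = 0.0189) and 1.61-fold with TNFα (q = 0.0155). With TNFα 2 were higher and 2 lower, among them *Ogn*, the small proteoglycan osteoglycin (3.18-fold lower, q = 0.000646).

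Of 13 activators, inhibitors and matrix partners 8 were tested. With TGFß1, *Furin*, the convertase that removes the prodomain of BMP1 and the ADAMTS proteases, was 1.71-fold higher (q = 0.00113). *Fn1*, the fibronectin that binds BMP1 in the matrix, was 1.75-fold higher with TGFß1 (q = 0.0201). The study's gene set also holds *Fn1*, as a conventional marker. *Timp3*, an inhibitor of ADAMTS2, was the only gene of this list lower in either comparison, 10.3-fold with TGFß1 (q = 1.18e-05) and 10.8-fold with TNFα (q = 1.41e-05). No gene of these 3 lists was called with IL-1β or IL-6. The TNFα and TGFß1 comparisons share their control arrays.

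**Figure D5:**
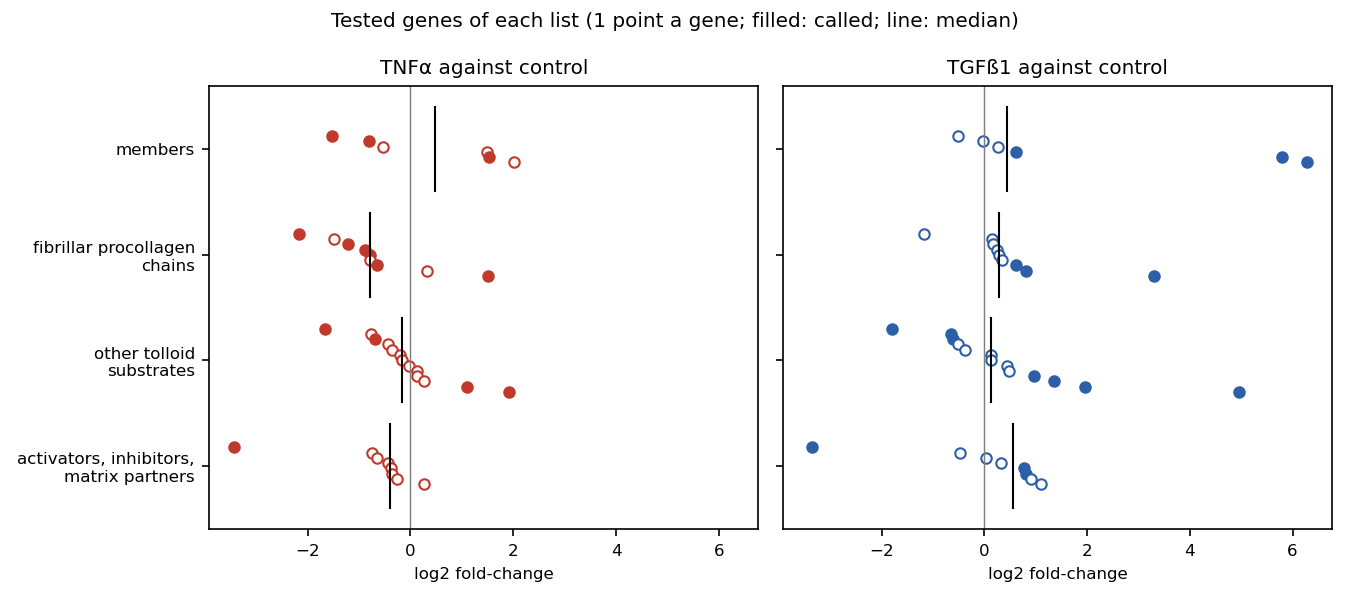
Log2 fold-change against control (x axis) of every tested gene of each list with TNFα (left) and TGFß1 (right), 1 point a gene, filled where called, with the median as a line. Fibrillar chains lie mostly below 0 with TNFα, and *Tll1* and *Pcolce2* are the 2 members far to the right with TGFß1.

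For each tested member, the genes whose levels followed it most closely over the 15 arrays were found by Pearson's r over 13523 tested genes, as a description; all arrays share the 5 groups. *Tll1* was followed by *Stk39* (r = 0.979), *Tnfrsf11b*, the decoy receptor osteoprotegerin (0.977), and *Memo1* (0.977). *Tnfrsf11b* was at a level of -3.58 in control and 1.56 with TGFß1, a span like that of *Tll1*. *Pcolce2* was followed by *Csnk1e* (0.986), *Pitrm1* (0.984) and *Il12rb1* (0.983). *Adamts2* was followed by *Dysf* (0.975), *Ccdc80* (0.958) and *Rgcc* (0.951), and *Adamts14* by *Parp8* (0.972), *Ext1* (0.967) and *Mmp10*, a stromelysin (0.953), which was at -2.02 in control and 2.71 with TNFα. *Bmp1* was followed by *Anxa4* (0.948), *Ubtd1* (0.946) and *Pank3* (0.944), and *Pcolce* by *Slc25a1* (0.977), *Aldh9a1* (0.971) and *Adgrl2* (0.967). No member was among the 3 nearest genes of another.

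Promoters of the 4 members with the largest changes are shown so that the pair that rose with TGFß1 can be set beside the N-proteinases that moved apart with TNFα. Each runs 5′ to 3′ on the strand of its gene, from 250 bases before the RefSeq start to 50 after it, with coordinates in GRCm38.p6; capitals mark a match to CAGACA (a SMAD-binding repeat) or TGANTCA (AP-1) on either strand, which do not overlap each other.
Tll1 (chr8:64205959-64206258, minus strand): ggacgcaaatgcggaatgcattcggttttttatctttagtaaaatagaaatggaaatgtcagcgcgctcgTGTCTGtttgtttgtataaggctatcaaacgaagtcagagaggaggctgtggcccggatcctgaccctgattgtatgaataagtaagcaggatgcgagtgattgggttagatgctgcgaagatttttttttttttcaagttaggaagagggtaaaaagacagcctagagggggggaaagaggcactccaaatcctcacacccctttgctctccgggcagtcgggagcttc
Pcolce2 (chr9:95637378-95637677, plus strand): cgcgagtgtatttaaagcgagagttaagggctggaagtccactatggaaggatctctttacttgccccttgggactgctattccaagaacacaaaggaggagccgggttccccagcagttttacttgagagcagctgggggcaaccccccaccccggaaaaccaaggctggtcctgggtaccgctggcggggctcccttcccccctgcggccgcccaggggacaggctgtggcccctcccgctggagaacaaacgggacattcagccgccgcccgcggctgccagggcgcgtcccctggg
Adamts2 (chr11:50601835-50602134, plus strand): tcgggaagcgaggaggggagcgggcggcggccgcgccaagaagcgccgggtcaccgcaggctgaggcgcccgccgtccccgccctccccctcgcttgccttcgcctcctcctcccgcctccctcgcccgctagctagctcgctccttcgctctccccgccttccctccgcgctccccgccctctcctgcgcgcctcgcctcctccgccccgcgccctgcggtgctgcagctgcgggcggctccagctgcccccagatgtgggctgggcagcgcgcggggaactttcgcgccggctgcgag
Adamts14 (chr10:61273370-61273669, minus strand): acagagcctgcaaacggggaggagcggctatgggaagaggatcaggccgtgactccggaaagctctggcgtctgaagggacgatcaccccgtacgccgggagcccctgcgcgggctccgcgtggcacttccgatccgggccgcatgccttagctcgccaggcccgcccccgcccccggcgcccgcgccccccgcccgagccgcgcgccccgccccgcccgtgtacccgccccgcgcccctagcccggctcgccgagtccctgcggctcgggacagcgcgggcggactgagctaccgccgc
The only match among the 4 was TGTCTG, the reverse complement of CAGACA, which began 180 bases before the start of *Tll1*. Of all 32851 promoters of this length, 21% held CAGACA and 7.81% held TGANTCA, so that 1 of 4 promoters with CAGACA lay near the share of all promoters. Bases G and C made up 46.3% of the *Tll1* promoter, 63.7% of that of *Pcolce2*, 77.3% of that of *Adamts2* and 76.7% of that of *Adamts14*. The promoter of *Pcolce*, the other called member in the table, held neither motif.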

How the data were processed

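RNA from MEFs was hybridized to 15 one-color Agilent arrays, 3 per group. The deposited values are the processed signal intensity of each spot, background-subtracted by the authors' scanner software (Agilent Feature Extraction 10.7.3.1), with no scaling between arrays; the deposited series table held the same intensity values. Members and gene lists were chosen with earlier results of these data known. Spots marked as outliers were left out, spots of a probe were averaged as log2, and arrays were scaled by their 75th percentile. Symbols came from RefSeq identifiers (GRCm38.p6 table). All 15 arrays were fitted by group with limma 3.58.1 (R 4.3.3), without covariates, on the 29334 of 56605 probes well above background on all arrays of at least 1 group (at least 50% of a probe's spots). Gene values are those of the probe with the highest mean. Named genes were all 8 members, at most 4 called genes per list, direction and comparison, and the 3 genes most correlated with each member; some genes of the lists are not reported here. A call needed a q-value below 0.05 and an absolute fold-change of at least 1.5. The number of arrays limits the precision. The fit was tested on simulated data whose noise was independent between arrays, so that test does not cover differences between runs or slides. Slide, run of array numbers, scaling, background, filter and left-out arrays were varied. After removal of the slide difference, deviations from group means correlated at 0.114 to 0.671 in all 30 pairs of arrays within a run (1 to 5, 6 to 10, 11 to 15) and at -0.564 to 0.259 in 60 pairs across runs.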

Additional observations from a re-analysis of the deposited data

How the results depend on the processing

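The number of members called with TNFα was 3, and it was 5 with slide and run as blocks and 5 without arrays 6 to 10, an alternative chosen after seeing the data; it was 0 on slide 1 alone, which holds 1 array of that group. Leaving out 1 array gave 3 to 4. With TGFß1 it was 3, against 1 when probes had to be well above background on all arrays, which removes *Tll1* and *Pcolce2* from the test, and 0 on slide 1 alone; leaving out 1 array gave 2 to 3. With IL-1β and IL-6 it stayed at 0. Over the 6 direct pairs 20 were called, against 13 with median centring, 1 on slide 1 alone and 8 on slide 2 alone, and 16 to 20 without 1 array. The cause was not tested where none is named, and the other 108 counts stayed within 1.5 times.

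None of the 6 called changes against control changed direction under any alternative. Sign changes touched only differences that were not called in either setting. On slide 1 alone, *Tll1* and *Pcolce2* gave -0.473 and -0.345 with IL-1β and -0.424 and -1.005 with IL-6. Without arrays 6 to 10, *Adamts14* gave -0.053 with TGFß1 and -0.012 with IL-6, and *Pcolce* -0.015 with IL-6. *Adamts2* with TGFß1 gave 0.013 with slide as a block, 0.025 with slide and run, and 0.042 on slide 2 alone. Leaving out 1 array gave *Adamts2* with TGFß1 -0.128 to 0.113, *Bmp1* with IL-1β -0.224 to 0.049, *Pcolce2* -0.016 to 0.996 with IL-1β and -0.521 to 0.875 with IL-6, and *Tll1* -0.147 to 1.72 and -0.368 to 1.31. Unlike the planned version on mean signals, normexp was run on median signals. With no scaling, the median log2 fold-change of all probes with TGFß1 was -0.07, against 0.07. Low signal limits *Tll1* and *Pcolce2* outside TGFß1.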
